A study of Homo sapiens with 66 samples.

Results

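The data described here are total RNA-seq libraries of AID-TPR cells, collected after 2 h of Actinomycin D (ActD) and without treatment. The members are 6 of the 66 libraries of the series, 3 with ActD (replicates 1 to 3) and 3 untreated (replicates old1 to old3), and they were chosen by their labels. AID-TPR cells are DLD-1 cells, a human colorectal adenocarcinoma line, with the genotype AID-NeonGreen-TPR: both alleles of TPR, which encodes a protein of the nuclear pore basket, carry an auxin-inducible degron and NeonGreen, and the RCC1 locus also expresses TIR1, the receptor through which auxin marks the degron for degradation. All groups below share these alleles, and no group of the unedited parental line received ActD. The ActD libraries received no auxin, so TPR protein was not targeted for degradation. The dose of ActD is not given in the sources used here. Each group has 3 libraries, and p-values measure the spread between them. The study's methods call its RNA-seq replicates independent and biological, and the labels do not tie single libraries to cultures. Other groups served for comparison: untreated AID-TPR replicates 1 to 3, AID-TPR cells with ActD and 1 mM auxin for 2 h (ActD was given before auxin), and AID-TPR cells with 1 mM auxin for 2 h. The last come as replicates old1 to old3 and, as a separate group, replicates 1 to 3. Total counts were between 25130610 and 55411411 in the ActD libraries and between 23084890 and 27916215 in the untreated ones. Of 12 colorectal epithelial markers, 10 were above 1 CPM (reads of a gene scaled to the size of the library) in all 6 libraries, while the summed level of 8 fibroblast markers was at most 1.61 CPM, that of 7 leukocyte markers at most 3.65 and that of 5 endothelial markers at most 12.8. The epithelial sum itself was 12491 to 14378 CPM in the untreated libraries, 7703 to 9482 with ActD and 7926 to 8585 in untreated replicates 1 to 3.

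ActD inserts itself into DNA and stops the RNA polymerases that move along it. Once synthesis has stopped, each RNA is lost at its own pace: mRNAs of the translation machinery and of metabolism typically last for many hours, while those of transcription factors and signalling inhibitors are degraded within minutes. Short-lived mRNAs often carry AU-rich elements in the 3′ untranslated region (UTR), which bind proteins such as those of the ZFP36 family and recruit the enzymes that remove the poly(A) tail. The comparison of ActD with untreated cells therefore asks which RNAs kept or lost their place in the pool over 2 h. No RNA of known amount was added to the libraries. Values are thus shares of the RNA that remained: a stable RNA gains share when others are lost, and a fall in total RNA could not be seen. A lower share can also not be told apart from fewer cells that expressed the gene, and reads in exons come from unspliced and mature RNA alike.

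The untreated libraries come in 2 sets of labels, and these did not give the same values. In replicates 1 to 3 genes that overlap share reads and the mitochondrial genes have no counts, which was not so in the ActD or the old libraries. Among the 6587 tested genes that share an exon with another gene, 872 (13.2%) were at least 2-fold apart between the 2 untreated sets. Among 6940 tested genes that share none, 412 (5.94%) were still at least 2-fold apart. The old libraries were counted like the ActD ones and were the controls for every value below unless stated. Treatment and label set cannot be told apart in that comparison, because no ActD library carries the label old and the untreated replicates 1 to 3 were counted in another way, and so the change against untreated replicates 1 to 3 is given beside it.

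Of 58051 genes in the files, 13631 had over 1 CPM in at least 3 of the 6 libraries and were tested. A gene over 1 CPM in the libraries of 1 group alone could enter, so classes of low counts were picked in part by the groups compared. The share of 829 genes (6.08%) fell and that of 97 genes (0.712%) rose, at an adjusted p under 0.05 (quasi-likelihood test of edgeR, adjusted by Benjamini-Hochberg) and a fold of at least 2, which is the rule for "fell", "rose" and "called" throughout. At an adjusted p under 0.05 and any fold, 2462 genes (18.1%) were lower and 1855 (13.6%) higher. Relative to the typical gene, most genes moved little. The normalisation (TMM) places the typical gene near no change, so these values do not show how much RNA was lost. The ratio of ActD to untreated share, called percent left below, was 100.0% at the median gene, lay between 78.7% and 119% for the middle of the distribution (25th to 75th percentile), and was 25.8% at the 1st percentile. At most 25% was left of 127 called genes. Compared with untreated replicates 1 to 3, 1519 of 13612 genes (11.2%) were lower and 61 (0.448%) higher. The genes lower against both sets numbered 405 (2.98%), which was 48.9% of those lower against the old libraries. Of the 818 lower genes with counts in both sets, 742 (90.7%) had a fold change below 0 against the other set too. No gene was higher against both sets by the same rule in edgeR. Of the 95 higher genes outside the mitochondrial genome, 85 were less than 2-fold from untreated replicates 1 to 3, 10 were at least 2-fold below them, none was at least 2-fold above them, and 13 were above them at an unadjusted p under 0.05. The genes that fell had a median of 7.29 CPM in the untreated libraries, against 29.3 CPM for genes not called, on a scale that is not corrected for gene length.

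**Figure D1:**
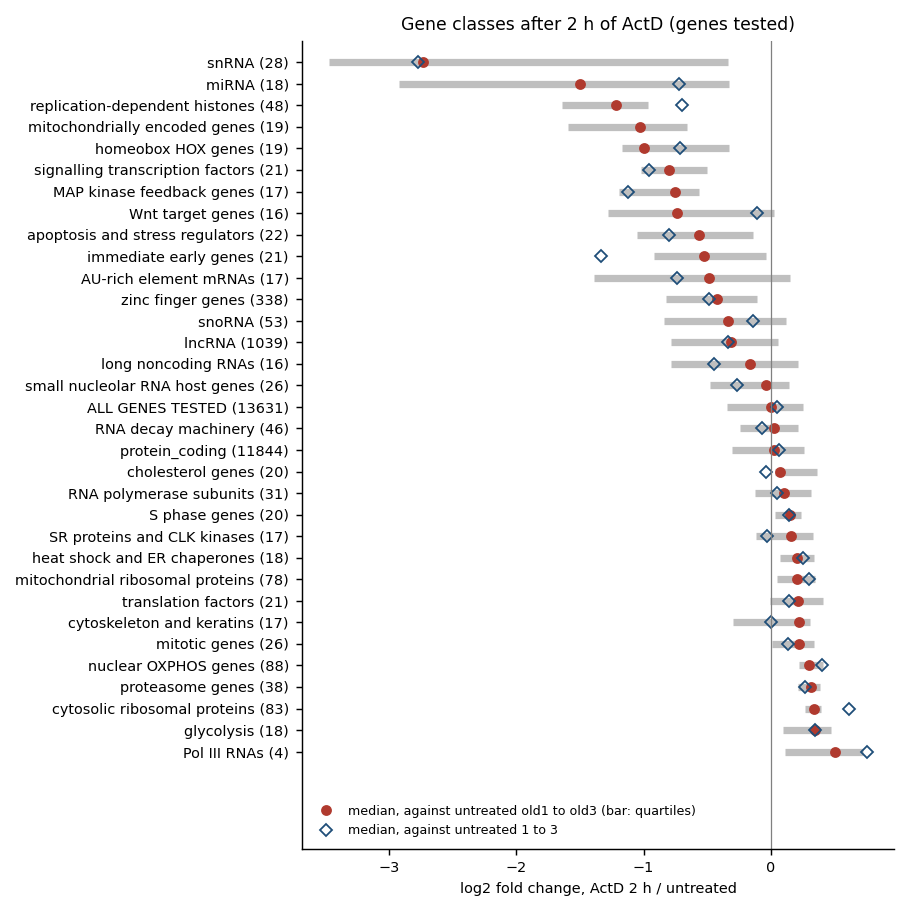
Each row is a gene class with the number of its genes tested, and the horizontal axis is the log2 fold change of ActD over untreated. Filled circles are the class medians against untreated old1 to old3 with bars for the quartiles, and open diamonds are the medians against untreated 1 to 3. Small nuclear RNA, miRNA and histone genes lie to the left of all genes tested (median 0.003), and ribosomal protein (0.339), glycolysis (0.345) and proteasome genes (0.317) to the right, against both sets.

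The protein-coding genes named first are the 15 with the lowest fold change among called genes with at least 50 counts on average and no overlap between the libraries of the 2 groups. NUAK2, a kinase related to AMPK (chr1:205302063-205321745, minus strand of GRCh38), was at 43.1, 43.6 and 47.6 CPM in untreated old1 to old3 and at 6.22, 4.54 and 3.82 CPM in ActD replicates 1 to 3. Its log2 fold change was -3.22 (SE 0.18, adjusted p = 2.83e-05 by edgeR), so that 10.7% of its share was left. The other untreated libraries were at 16.1, 13.9 and 16.8 CPM, still above every ActD library but well under the old ones. MYC, which encodes a transcription factor of cell growth, went from 232, 193 and 225 CPM to 24.7, 34.6 and 30.8 CPM, a log2 fold change of -2.85 (SE 0.14, adjusted p = 2.68e-05). Untreated replicates 1 to 3 had 129, 205 and 148 CPM of MYC, so the groups did not overlap with either set, and 13.9% was left.

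Several of these genes encode inhibitors that act as feedback on a pathway. NFKBIA, which encodes the inhibitor that holds NF-kappaB in the cytoplasm (chr14:35401079-35404749, minus strand), was at 67.0, 60.9 and 55.2 CPM without treatment and at 12.8, 13.5 and 10.2 CPM with ActD (log2 fold change -2.33, SE 0.14, adjusted p = 3.63e-05), against 56.1, 47.4 and 47.5 CPM in the other untreated libraries. AXIN2, a scaffold of the complex that degrades beta-catenin and a target of the Wnt pathway it limits (chr17:65528563-65561648, minus strand), went from 402, 444 and 465 CPM to 103, 66.9 and 98.2 CPM (log2 fold change -2.29, SE 0.16, adjusted p = 6.04e-05), and the other set had 383, 324 and 366 CPM. For both genes the 2 untreated sets lay close together and far above ActD. BAMBI, a receptor decoy of TGF-beta signalling, went from 59.5, 54.5 and 54.9 CPM to 14.5, 12.8 and 8.0 CPM, and RGS16, which switches off G proteins, from 13.4, 9.56 and 7.49 CPM to 2.37, 2.21 and 2.42 CPM. Their log2 fold changes were -2.27 and -2.11.

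Another group encodes transcription factors. HES1, the repressor at the end of the Notch pathway (chr3:194136148-194138732, plus strand), fell from 64.4, 83.5 and 88.7 CPM to 11.6, 21.5 and 9.54 CPM (log2 fold change -2.48, SE 0.28, adjusted p = 0.000495), with ActD replicate 2 the highest of the ActD libraries. CSRNP1, a nuclear factor of the AXIN1 response, fell from 37.1, 30.2 and 31.2 CPM to 5.62, 9.45 and 5.62 CPM (log2 fold change -2.26), TFAP2C, of the AP-2 family, from 34.9, 37.5 and 39.1 to 8.87, 8.51 and 7.85 CPM (-2.15), and ARID5B, a DNA-binding cofactor, from 54.2, 63.4 and 65.0 to 16.1, 11.8 and 13.5 CPM (-2.14). None of these genes overlapped between the groups. DLL4, a Notch ligand, fell by 2.23 on the log2 scale, RNF223, a RING finger protein, by 2.12 and IFFO1, related to intermediate filaments, by 2.41. BEST1, a chloride channel, fell too (log2 fold change -2.58), but it shares exons with another gene and had 5.46, 4.99 and 2.51 CPM in the old untreated libraries and 319, 401 and 376 CPM in the other ones, so its own level is uncertain. The last of the 15, H2BC11, is a histone gene and is described with its class. Against untreated replicates 1 to 3, 14 of the 15 also fell, BEST1 among them, whose value there carries the uncertainty given above. The remaining gene, DLL4, lay just short of 2-fold.

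**Figure D2:**
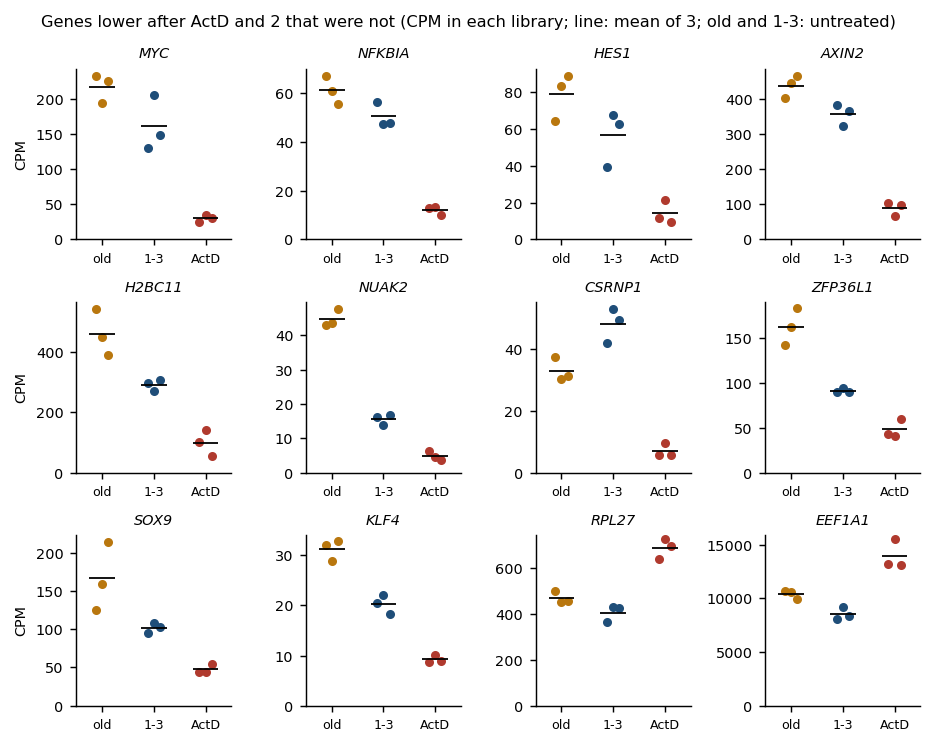
CPM on the vertical axis of each panel for 12 genes, in untreated old1 to old3 (old), untreated 1 to 3 (1-3) and ActD replicates 1 to 3, with 1 point a library and a line at the mean of 3. In the 10 genes that fell, from MYC to KLF4, every ActD library sits below every untreated library of either set, while all ActD libraries of RPL27 (642 to 727 CPM) and EEF1A1 (13130 to 15533 CPM) sit above them.

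AU-rich elements were looked for as the letters TATTTAT, sense strand, in the annotated 3′ UTR of 1 transcript a gene. The windows below, from GRCh38 with GENCODE 44 models, show the motif in capitals with the 11 bases on each side. They are shown because the same letters stand in mRNAs that fell and in mRNAs that did not. The first 5 genes fell and the last 3 were not called.
NFKBIA (chr14:35401699-35401727, minus strand): accacattttaTATTTATtgtgcttcgag
PIM3 (chr22:49963567-49963595, plus strand): gccaactctgtTATTTATggtgtgacccc
DUSP2 (chr2:96143208-96143236, minus strand): ttagcactttaTATTTATacagaacattc
SOX9 (chr17:72125498-72125526, plus strand): cttgctaaaatTATTTATtttgtaaggag
ZFP36 (chr19:39409181-39409209, plus strand): aatgggcccttTATTTATgacgactttat
HIF1A (chr14:61747134-61747162, plus strand): ctaaagcagtcTATTTATattttctacat
PLAUR (chr19:43648601-43648629, minus strand): aatattcatatTATTTATtttatacttac
MDM2 (chr12:68842214-68842242, plus strand): atgccaagctaTATTTATaatgaacaaat

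The genes were grouped by the number of copies of the motif. It was in the 3′ UTR of 4235 of 11817 tested protein-coding genes with an annotated UTR (35.8%). Of 7582 genes without it 4.58% fell, of 2404 genes with 1 copy 4.53%, of 1007 genes with 2 copies 6.06% and of 824 genes with 3 or more 4.73%. The median log2 fold changes of the same groups were 0.011, 0.033, 0.04 and 0.088. In the comparison with untreated replicates 1 to 3 they were 0.088, 0.048, 0.016 and 0.028, and with ActD and auxin against auxin 0.048, -0.028, -0.062 and -0.027, so that the order of the groups depended on the comparison. Long UTRs hold the motif more often, and the genes were therefore also split at UTR lengths of 521, 1328 and 2768 bases. In the second of the 4 length groups, 8.07% of 694 genes with the motif fell and 4.74% of 2259 genes without it. The difference was smaller for the shortest UTRs (5.17% against 4.91%) and in the third group (5.6% against 4.23%), and reversed for the longest (3.41% against 3.86%). The shares that fell against both untreated sets, with and without the motif, were 2.95% and 2.42% for the shortest UTRs and 3.31% and 1.86% in the second group. They were 2.88% and 1.47% in the third group and 0.94% and 0.965% for the longest. These are descriptions over genes, which are not replicates.

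Among 17 tested mRNAs known to carry AU-rich elements, 7 fell (41.2%) and 1 rose, with a median log2 fold change of -0.48, beside 0.003 over all genes and 6.08% called lower. Against untreated replicates 1 to 3, 5 of them fell (29.4%, beside 11.2%), and 4 fell against both (23.5%, beside 2.98%). Without ActD replicate 2, 8 fell, none rose by edgeR and the median was -0.965. The lowest after NFKBIA were CXCL3, a chemokine, at 6.28, 6.1 and 5.02 CPM without treatment and 1.12, 2.95 and 0.652 CPM with ActD (log2 fold change -1.96, but -0.73 and not called against the other set), and PIM3, a survival kinase, at 98.8, 90.4 and 94.1 and 25.5, 30.4 and 20.6 CPM (-1.89 and -1.86). PIM3 had no overlap with either set. At the other end, HIF1A, the factor of the hypoxia response, had 166, 189 and 188 CPM before and 223, 229 and 255 CPM after ActD, and PLAUR, the urokinase receptor, 11.4, 8.74 and 9.3 and 10.9, 17.1 and 14.5 CPM. Their log2 fold changes of 0.38 and 0.53 were not called. The proteins that read these elements include ZFP36, ZFP36L1 and ZFP36L2, which bind AU-rich mRNAs and trigger their decay. Of 46 tested genes of the RNA decay machinery 4 fell (8.7%, beside 6.08% of all genes), and 4 fell against untreated replicates 1 to 3 (8.7%, beside 11.2%). The list as a whole was thus near the share of all genes. Of the 4 that fell against the old libraries, TOB2, which links deadenylases to mRNAs, was just past 2-fold. ZFP36L1 went from 142, 163 and 183 CPM to 43.6, 41.2 and 60.04 CPM (-1.75) and ZFP36L2 from 19.3, 22.7 and 35.7 to 6.87, 8.06 and 8.17 CPM (-1.75). ZC3H12A, an RNase of immune mRNAs, went from 17.3, 18.2 and 17.7 CPM to 8.67, 9.21 and 7.23 CPM (-1.09). These 3 were also lower against untreated replicates 1 to 3, and without ActD replicate 3 ZC3H12A was just short of 2-fold (-0.987). The deadenylase subunit CNOT7 and the exosome helicase MTREX had log2 fold changes of 0.48 and 0.48, and the list's median was 0.022.

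In the immediate early genes, which growth factors switch on without new protein, the ActD libraries differed from each other. Of 21 tested genes 3 (14.3%, beside 6.08% of all genes) fell, MYC, ZFP36 and FOSL2, and FOSB and CCN2 rose, with a median log2 fold change of -0.52. EGR1, a zinc finger factor of this group (chr5:138465479-138469303, plus strand), was at 33.4, 34.4 and 51.8 CPM in the untreated libraries and at 14.7, 77.5 and 24.7 CPM in ActD replicates 1 to 3. Replicate 2 was thus above all untreated old libraries and the other two were below them. FOS, which encodes a subunit of AP-1 (chr14:75278826-75282230, plus strand), was at 4.63, 4.41 and 3.94 CPM and at 3.21, 10.5 and 6.66 CPM, and JUN, its partner, at 22.9, 11.04 and 10.0 and 15.3, 43.3 and 23.8 CPM, again with replicate 2 the highest. Neither was called (log2 fold changes 0.65 and 0.91). In untreated replicates 1 to 3 FOS stood at 12.3, 14.5 and 13.9 CPM and EGR1 at 102, 167 and 149 CPM, far above the old libraries, and against this set 12 of the 21 genes fell (57.1%, beside 11.2% of all genes), FOS (-1.14) and EGR1 (-1.99) among them. Without untreated old1 or old2 the genes that fell numbered 6 and 5. Without ActD replicate 2, 10 of the 21 fell and 1 rose against the old libraries, the median was -0.97 and EGR1 was called lower at -1.01 (adjusted p = 0.021 by edgeR). Without ActD replicate 1 or untreated old1, JUN was called higher, at 1.19 and 1.38. ZFP36 went from 19.9, 25.7 and 28.7 CPM to 7.83, 15.9 and 7.69 CPM (log2 fold change -1.25) and FOSL2, another AP-1 subunit, from 80.0, 79.6 and 89.4 to 32.3, 36.5 and 37.9 CPM (-1.22), both also lower against the other set.

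Some feedback genes of the MAP kinase pathway and some stress regulators, such as SPRY2, DDIT4 and GDF15, were also higher in ActD replicate 2 than in the other ActD libraries. Of 17 tested MAP kinase feedback genes 7 fell (41.2%, beside 6.08% of all genes), none rose, and the median was -0.75. Set against untreated replicates 1 to 3, 9 fell (52.9%, beside 11.2%), with 5 in common (29.4%, beside 2.98%), and without ActD replicate 2 the number was 10. DUSP2, a phosphatase of ERK, went from 16.5, 14.3 and 14.3 CPM to 4.02, 4.26 and 2.53 CPM (log2 fold change -2.09, SE 0.21, adjusted p = 0.000297), SPRY1 from 13.2, 13.4 and 13.1 to 4.94, 5.12 and 4.16 CPM (-1.49) and SPRY2 from 15.7, 15.8 and 18.5 to 5.62, 7.86 and 5.53 CPM (-1.40). The last 2 encode Sprouty inhibitors of receptor signalling, and all 3 fell by a similar amount against the other set (-2.07, -1.18 and -1.44). The ligands of the EGF receptor in this list did not follow them. EREG was at 485, 489.6 and 439.8 CPM without treatment and at 643, 979 and 1092 CPM with ActD. Its log2 fold change of 0.94 and that of AREG (0.52) were not called. EREG was called higher without ActD replicate 1 (1.135). Against untreated replicates 1 to 3, which had 992, 1229 and 855 CPM of EREG, the values were -0.32 and -0.56.

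Of 22 apoptosis and stress regulators 6 fell (27.3%, beside 6.08% of all genes) and none rose, with a median of -0.57. Set against untreated replicates 1 to 3, 6 fell as well, beside 11.2% of all genes, and 3 of them were the same genes. DDIT4, an inhibitor of mTOR, went from 13.8, 16.7 and 22.0 CPM to 4.34, 10.6 and 4.2 CPM (log2 fold change -1.47, SE 0.34, adjusted p = 0.0127), and BCL2L11, which encodes the death protein BIM, from 18.6, 20.6 and 27.0 to 10.5, 7.2 and 9.08 CPM (-1.31). GDF15, a stress cytokine (chr19:18374731-18389176, plus strand), was at 233, 199 and 205 CPM without treatment and at 42.1, 169 and 27.7 CPM with ActD. ActD replicates 1 and 3 were thus far below the untreated libraries and replicate 2 was not, so that its log2 fold change of -1.42 (SE 0.54) was not called (adjusted p = 0.0724). Without ActD replicate 2 it was -2.61 (adjusted p = 0.000116). MDM2, the ligase of p53, was at 137, 158 and 152 CPM beside 114, 141 and 135 CPM in untreated old1 to old3 and 197, 203 and 192 CPM in the other set, and PMAIP1 and MDM4 had log2 fold changes of 0.17 and 0.10.

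ActD replicate 2 also stood apart outside these lists. The 7SL, 7SK and Y RNA class took 2.62% of its counts, against 1.62% and 1.43% in ActD replicates 1 and 3 and 1.22% to 1.29% in the untreated libraries, and small nucleolar RNAs took 0.975% against 0.529% and 0.539%. The number of genes called over all genes did not rest on it: leaving out each of the 6 libraries in turn gave 791 to 872 lower genes and 80 to 106 higher ones.

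Transcription factors of the ID, KLF, HES and SMAD feedback families fell in 7 of 21 tested genes (33.3%, beside 6.08% of all genes), and none rose. Against untreated replicates 1 to 3, 10 fell (47.6%, beside 11.2%), and 6 fell against both (28.6%, beside 2.98%). The median against the old libraries was -0.80. Beside HES1, KLF4, a factor of epithelial differentiation, went from 32.1, 28.8 and 32.8 CPM to 8.71, 10.1 and 8.98 CPM (log2 fold change -1.76, SE 0.12, adjusted p = 5.5e-05), and TGIF1, a repressor of SMAD targets, from 100.6, 97.8 and 93.1 to 27.99, 33.7 and 26.6 CPM (-1.73). Their replicates did not overlap with either untreated set. Members of the same families that were not called include HES4 and HES6 (0.27 and 0.06) and SKIL (0.28).

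Wnt target genes are active in DLD-1 cells, whose APC gene is truncated. Of 16 tested, 7 fell (43.8%, beside 6.08% of all genes) against the old libraries, with a median of -0.74. Against untreated replicates 1 to 3, only 3 fell (18.8%, beside 11.2%), with a median of -0.11. The 3 were AXIN2, SOX9 and EPHB3, and they were lower against both. SOX9, a factor of intestinal crypt cells, was at 126, 159 and 214 CPM without treatment and at 44.3, 44.6 and 54.5 CPM with ActD, with 94.5, 109 and 103 CPM in the other set. EPHB3, a receptor kinase of the crypt, was at 38.9, 44.2 and 46.0 and 13.7, 14.2 and 10.1 CPM, with 20.7, 29.4 and 24.9 CPM in the other set. ASCL2, a master factor of intestinal stem cells, had 159.9, 154 and 198 CPM without treatment and 125, 106 and 70.3 CPM with ActD (log2 fold change -0.76, not called), but untreated replicates 1 to 3 had 77.2, 79.1 and 84.9 CPM, which overlapped the ActD libraries (0.18). TNFRSF19 (0.49), APCDD1 (0.53) and NOTUM (0.60) had the highest values of the list and were not called.

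Zinc finger genes, taken as every protein-coding gene whose symbol is ZNF and a number, are the longest of the lists. Of 338 tested, 51 fell (15.1%, beside 6.08% of all genes) and none rose, the median was -0.425, and 280 had a fold change below 0. In the comparison with untreated replicates 1 to 3, 85 fell (25.1%, beside 11.2%) and the median was -0.48, and 37 fell against both (10.9%, beside 2.98%). ZNF503, a developmental repressor, went from 12.2, 11.8 and 15.7 CPM to 3.33, 3.48 and 4.2 CPM (log2 fold change -1.84, -2.04 against the other set). ZNF703, another of the lowest, went from 28.4, 30.3 and 71.6 to 11.8, 9.78 and 9.71 CPM (-2.06), with old3 highest, and had 15.7, 16.9 and 15.3 CPM in the other set (-0.75, not called). ZNF296 had 2.59, 2.02 and 6.41 CPM without treatment, also highest in old3, and 1.12, 0.737 and 0.863 CPM with ActD (-2.03). The highest member, ZNF462, was at 4.04, 4.29 and 4.39 and 7.83, 7.61 and 8.14 CPM (0.89, not called).

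HOX genes, which give cells their position along the body, were tested in 19 members. Of these 9 fell (47.4%, beside 6.08% of all genes), none rose, all 19 had a fold change below 0, and the median was -0.999. Set against untreated replicates 1 to 3, 7 fell (36.8%, beside 11.2%) with a median of -0.71, and 4 fell against both (21.1%, beside 2.98%). HOXA3 went from 7.34, 9.19 and 9.19 CPM to 3.37, 2.5 and 3.34 CPM (log2 fold change -1.47, -1.76 against the other set) and HOXB4 from 40.6, 30.8 and 21.9 to 13.9, 11.4 and 8.39 CPM (-1.48 and -1.02). HOXB5 was lower against the old libraries, at 6.14, 5.2 and 5.87 after 15.2, 18.5 and 15.1 CPM (-1.50), but the other set had 9.67, 5.82 and 7.33 CPM (-0.53, not called). The genes of the same HOXB cluster differed among themselves: HOXB7, HOXB9 and HOXB13 had log2 fold changes of -0.11, -0.17 and -0.11, none of them called, and HOXB9 was at 92.1, 103 and 117 CPM before and 92.5, 104 and 81.2 CPM after. HOXA13 lay at the edge of the call at -1.004 (adjusted p = 0.00292). It was at 99.5, 131 and 121 CPM and 65.4, 44.1 and 65.9 CPM, and it was past the threshold of 2-fold in 3 of the 6 fits that left out 1 library. Without untreated old2 or old3 it was -0.923 and -0.985, and without ActD replicate 2 it was -0.84. The number of HOX genes that fell was 6 without ActD replicate 2 and 11 without ActD replicate 1. In these lists without a gene that rose, DESeq2 called none higher either, and at an unadjusted p under 0.05 the higher genes numbered 1 of the MAP kinase feedback genes, 2 Wnt target genes, 12 zinc finger genes and 0 of the apoptosis regulators, the signalling transcription factors, the HOX genes and the histones.

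Replication-dependent histone mRNAs end without a poly(A) tail in a stem-loop, which binds SLBP and ties their stability to DNA synthesis. They can be seen here because the libraries were made from total RNA. Of 48 tested, 32 fell (66.7%, beside 6.08% of all genes) and none rose, the median log2 fold change was -1.22, and 47 were lower at an adjusted p under 0.05 and any fold. Against untreated replicates 1 to 3, 16 fell (33.3%, beside 11.2%), all of them among the 32, and the median was -0.70. As a class they took 1.45%, 1.37% and 1.26% of all counts in the untreated libraries and 0.609%, 0.707% and 0.417% with ActD, a mean of 1.36% ± 0.093 (SD, n = 3) against 0.577% ± 0.147, with no overlap. The exact 2-sided permutation test gave p = 0.1, the smallest that 3 against 3 can give. Leaving out 1 library at a time gave 24 to 40 genes that fell, with 40 without ActD replicate 2.

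The stem-loops of 6 histone genes follow, from GRCh38 with GENCODE 44 models, with the stem, loop and stem in capitals. They are shown to compare genes at both ends of the class: the first 3 fell most, and the last 3 were not called.
H2BC11 (chr6:27132316-27132343, minus strand): ccctaacGGCTCTTTTAAGAGCCaccca
H3C12 (chr6:27890315-27890342, minus strand): ttccaaaGGCTCTTTTCAGAGCCactta
H2AC16 (chr6:27865771-27865798, plus strand): atacaacGGCTCTTTTCAGAGCCaccta
H4C4 (chr6:26188710-26188737, minus strand): aaccaacGGCCCTTTTCAGGGCCaccta
H4C1 (chr6:26022023-26022050, plus strand): aaccaaaGGCCCTTTTCAGGGCCgccca
H4C3 (chr6:26104310-26104337, plus strand): acccaaaGGCCCTTTTCAGGGCCgctca

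The 16 bases in capitals, searched on the sense strand of the annotated 3′ UTR with bases 3, 4, 10, 13 and 14 left free, were found in 46 of the 48 histone genes (95.8%) and in 9 of 11769 other protein-coding genes (0.0765%). With these bases left free, the element was thus shared by histone genes that fell and by those that did not. At bases 4 and 13 the printed genes differed, with T and A in the 3 that fell and C and G in the 3 not called. The latter are all H4 genes. Whether these bases go with the change was not tested. H2BC11 was at 541, 449 and 391 CPM in the untreated libraries and at 101.2, 140.3 and 56.6 CPM with ActD (log2 fold change -2.21, SE 0.28, adjusted p = 0.000866), with 296, 270.3 and 306 CPM in the other set. H3C12 was at 379, 334 and 351 and 94.4, 118 and 48.9 CPM (-2.03) and H2AC16 at 61.0, 62.2 and 62.1 and 16.4, 20.9 and 9.33 CPM (-2.01). In all 3 the lowest library was ActD replicate 3 and no groups overlapped. H4C3 was at 539, 426 and 394 CPM before and 453, 507 and 416 CPM after ActD, a log2 fold change of 0.02 (SE 0.13). The other 2 H4 genes shown, H4C1 and H4C4, had log2 fold changes of -0.52 and -0.55, which were not called, and -0.04 and -0.16 against the other set.

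Genes of snRNAs and miRNAs had the lowest medians of the classes compared against the old libraries, -2.73 and -1.50. Of 28 tested snRNA genes, which encode the RNAs of the spliceosome, 17 fell (60.7%, beside 6.08% of all genes), and the same number fell against untreated replicates 1 to 3 (beside 11.2%). Many of these, such as RNVU1-6 and RNU1-1, were under 1 CPM in every ActD library. They entered the test through the untreated libraries, so the share that fell and the median of the class were set in part by the filter. The split of this class was made after the values were seen: of 15 genes of U1 and of its variants on chromosome 1, 13 fell against each set, with a median log2 fold change of -3.47, and of the 13 other snRNA genes 4 fell. RNVU1-6, a U1 variant (chr1:146052081-146052244, minus strand), was at 21.0, 9.89 and 9.58 CPM in the untreated libraries, 11.6, 10.2 and 12.6 CPM in the other set and 0.241, 0.491 and 0.249 CPM with ActD. RNVU1-27 was at 20.3, 16.2 and 14.5, 11.1, 11.7 and 14.8 and 1.33, 1.02 and 1.96 CPM in the same groups, and RNU1-1, a gene of U1 itself, at 2.32, 1.32 and 1.15, 0.911, 0.927 and 1.15 and 0.0402, 0.123 and 0.173 CPM. The groups did not overlap in any of these. RNVU1-31, the U1 variant with the most reads, was at 105, 87.8 and 70.0 CPM before and 102, 124 and 83.7 CPM after ActD (log2 fold change 0.24, not called). U1 genes are nearly identical copies, so the reads of each are uncertain. Over all snRNA genes the share of counts was 0.0483% ± 0.003 without and 0.0417% ± 0.0133 with ActD (exact permutation p = 0.5), so the difference of the class as a whole was within its spread.

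Of 18 tested miRNA genes 10 fell (55.6%, beside 6.08% of all genes), with 8 against untreated replicates 1 to 3 (44.4%, beside 11.2%). These counts are of reads over the hairpin, and libraries of this kind hold few mature miRNAs, so they describe precursor and host RNA. All 10 lower genes were under 1 CPM in every ActD library and entered the test through the untreated ones. The share that fell and the median of the class were thus set in part by the filter. The mature sequences of the loci, from RefSeq (GRCh38.p14), are shown with the seed, bases 2 to 8, in capitals, because 3 of the lower loci are members of the miR-200 family of epithelial cells that lie next to each other on chromosome 1.
MIR200B, hsa-miR-200b-3p (chr1:1167160-1167181, plus strand): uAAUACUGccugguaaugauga
MIR429, hsa-miR-429 (chr1:1169055-1169076, plus strand): uAAUACUGucugguaaaaccgu
MIR200A, hsa-miR-200a-3p (chr1:1167916-1167937, plus strand): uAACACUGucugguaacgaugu
MIR25, hsa-miR-25-3p (chr7:100093571-100093592, minus strand): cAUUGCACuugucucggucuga
MIR3189, hsa-miR-3189-3p (chr19:18386607-18386627, plus strand): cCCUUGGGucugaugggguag

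The first 2 have the seed AAUACUG and the third has AACACUG. Reads over MIR200A were at 1.37, 2.35 and 1.32 CPM in untreated old1 to old3 and at 0.201, 0.286 and 0.154 CPM with ActD, over MIR200B at 2.32, 2.76 and 1.6 and 0.361, 0.655 and 0.249 CPM, and over MIR429 at 2.75, 2.64 and 1.78 and 0.562, 0.286 and 0.288 CPM. The 3 loci fell together, with log2 fold changes of -3.03, -2.49 and -2.70. In untreated replicates 1 to 3 MIR200B was at 1.16, 0.406 and 0.699 CPM, and its fold change of -1.05 was not called. MIR25, in an intron of MCM7, went from 3.06, 1.85 and 1.18 CPM to 0.201, 0.327 and 0.192 CPM (-3.11, -2.93 against the other set), and MIR3189, in an intron of GDF15, from 4.87, 4.82 and 2.86 to 0.763, 0.655 and 0.269 CPM (-2.999 and -2.66). All 3 ActD libraries were low for MIR3189, replicate 2 included, whereas the exons of GDF15 were high in replicate 2.

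Small nucleolar RNAs, which guide the modification of ribosomal RNA and mostly lie in introns, fell in 11 of 53 tested genes (20.8%, beside 6.08% of all genes), and 1 rose. All 11 also fell against untreated replicates 1 to 3, where 16 fell (30.2%, beside 11.2%) and 4 rose. Of the 11, SNORD14E, SNORD99 and SNORA55 were under 1 CPM in every ActD library and entered the test through the untreated ones. The share that fell was thus set in part by the filter. SNORD14E, in an intron of HSPA8, went from 7.15, 4.9 and 4.42 CPM to 0.683, 0.614 and 0.691 CPM (log2 fold change -3.03, adjusted p = 0.000129). SNORD3B-2, a copy of U3 with a longer gene model, went from 88.4, 77.1 and 53.1 to 10.8, 12.9 and 8.19 CPM (-2.79), while SNORD3A, another U3 gene, was at 4942, 6166 and 5589 CPM before and 4514, 8915 and 4806 CPM after (0.13, not called). Copies of U3 share sequence, so the split between them is uncertain. RNA of the signal recognition particle, RN7SL2, made by RNA polymerase III, was at 12181, 11264 and 12266 CPM and 15939, 26645 and 14795 CPM (log2 fold change 0.68, not called), with ActD replicate 2 the highest. None of the 4 tested Pol III RNAs was called by edgeR or DESeq2, and 2 were higher at an unadjusted p under 0.05. Their median was 0.50, and 0.276 without ActD replicate 2. Set against untreated replicates 1 to 3, the median was 0.76 and 2 of the 4 rose, RN7SL2 (1.02, adjusted p = 0.00996 by edgeR) and RNU6ATAC (1.07).

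**Figure D3:**
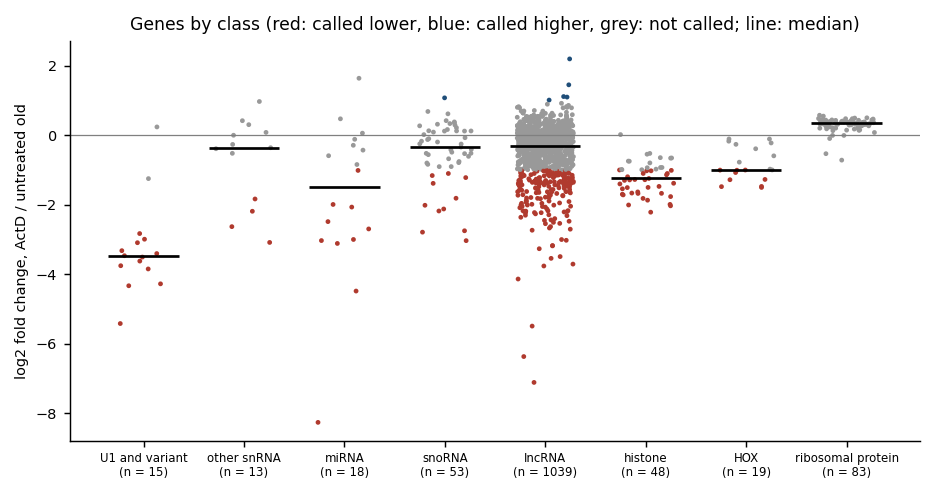
Log2 fold change of ActD over untreated old1 to old3 on the vertical axis, with 1 point a gene, in red where it was called lower, in blue where it was called higher and in grey where it was not called, and a line at the class median. The points of U1 and its variants lie mostly between -5.42 and -2.83, those of ribosomal proteins near their median of 0.339, and the lowest miRNA gene is MIR4521, which had no count in any ActD library, so that its fitted value is not a measured fold.

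Long noncoding RNA genes made up 186 of the 829 genes that fell. Of 1039 tested lncRNA genes 186 fell (17.9%) and 5 rose, and of 11844 protein-coding genes 566 fell (4.78%) and 87 rose. The medians were -0.31 and 0.024, and against untreated replicates 1 to 3 they were -0.34 and 0.068. Of the lncRNA genes, 117 fell against both sets (11.3%), compared with 228 of the protein-coding ones (1.93%). The classes differ in overlap: 646 of the 1039 lncRNA genes and 5789 of the 11844 protein-coding ones share an exon with another gene. Of all tested genes that share an exon, 17.3% fell against untreated replicates 1 to 3 and 3.18% against both sets. Of those that share none, 5.14% and 2.7% did. As a class lncRNA genes took 0.934% ± 0.068 of counts without treatment and 0.771% ± 0.0365 with ActD (SD, n = 3), with no overlap and an exact 2-sided permutation p of 0.1. ENSG00000253190, a spliced gene, had the lowest fold change among these lncRNA genes, from 7.7, 9.23 and 9.79 CPM to 0.12, 0.0818 and 0.0192 CPM (log2 fold change -7.11, SE 0.36, adjusted p = 2.68e-05), and untreated replicates 1 to 3 had 1.96, 4.2 and 4.47 CPM. A pair of unspliced lncRNA genes within the span of SHF on the same strand, ENSG00000260035 (chr15:45200325-45200632, minus strand) and ENSG00000259932 (chr15:45198517-45199139, minus strand), went from 6.95, 7.79 and 6.41 to 0.0402, 0.246 and 0.0192 CPM and from 3.22, 5.52 and 4.11 to 0.0803, 0.205 and 0.0384 CPM. The ActD libraries held a few reads of each, and the fitted log2 fold changes were -6.37 and -5.49. ENSG00000253190 and this pair were under 1 CPM in every ActD library and entered the test through the untreated ones. The share of lncRNA genes that fell was thus set in part by the filter. The next 2 cannot be separated from small RNA genes that they cover: ENSG00000276216 (-4.14) holds the U1 variant RNVU1-14, and ENSG00000262202 (-3.76) the U3 copy SNORD3D.

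Well known lncRNAs differed among themselves. MIR17HG, the host of the miR-17 cluster, went from 10.4, 11.9 and 8.25 CPM to 2.81, 2.99 and 2.26 CPM (log2 fold change -1.93, -2.53 against the other set), and UCA1, an lncRNA of carcinomas, from 9.7, 17.1 and 19.0 to 5.54, 8.31 and 3.7 CPM (-1.40, -0.67 and not called). These were the only 2 of 16 listed lncRNAs that fell. MALAT1, which is kept in nuclear speckles, was at 326, 500.4 and 579 CPM before and 625, 531 and 853 CPM after ActD (0.52, not called), and OIP5-AS1 had 0.24. Of 26 hosts of small nucleolar RNAs 1 fell, SNHG18 (from 10.96, 10.6 and 8.92 CPM to 4.02, 4.66 and 3.2 CPM, with 4.31, 3.27 and 3.63 CPM in the other set), and the median was -0.038. Against untreated replicates 1 to 3, 7 of the 26 fell (26.9%, beside 11.2% of all genes) with a median of -0.265, and none of the 7 was SNHG18. However, 25 of the 26 share an exon with another gene, and that set was counted in another way for such genes. Of all tested genes that share an exon 17.3% fell against that set, and of those that share none 5.14%. The number that fell against the old libraries was 3 without ActD replicate 3 and 2 without old3, SNHG12 among them (-1.02 and -1.14). SNHG12 and SNHG7 were just short of 2-fold (-0.97 and -0.87) but called lower against the other set.

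At the stable end, the medians of several classes of mRNAs were above 0. Of 83 cytosolic ribosomal protein genes none was called by edgeR or DESeq2, the median log2 fold change was 0.34, 48 were higher at an adjusted p under 0.05 and any fold, and 64 at an unadjusted p under 0.05. RPL27 was at 501, 452 and 458 CPM without treatment and at 642, 727 and 696 CPM with ActD (log2 fold change 0.55), with no overlap, and the other set had 365, 429 and 425 CPM. The class took 7.58%, 7.16% and 7.13% of counts in the untreated libraries and 8.33%, 9.08% and 8.06% with ActD, a mean of 7.29% ± 0.253 against 8.49% ± 0.527 (SD, n = 3, exact permutation p = 0.1). EEF1A1, which brings aminoacyl-tRNAs to the ribosome, was at 10702, 10577 and 9976 CPM and 13241, 15533 and 13130.0 CPM (0.42). The medians of the other stable lists were 0.30 for nuclear genes of oxidative phosphorylation (88 genes), 0.32 for the proteasome (38), 0.345 for glycolysis (18), 0.205 for mitochondrial ribosomal proteins (78) and 0.212 for translation factors (21). At an unadjusted p under 0.05 these lists held 60, 25, 9, 30 and 11 higher genes and 2, 0, 0, 3 and 2 lower ones, in that order. DESeq2 called no gene of the proteasome, glycolysis and mitochondrial ribosome lists, and in edgeR 1 gene was called in each direction over the 5 lists. EIF4A1, which fell (-2.08), shares exons and had 27.3, 21.1 and 17.1 CPM in the old libraries but 1642, 1666 and 1692 CPM in the other set, and NDUFC2, which rose (1.03), was at 5.34, 11.1 and 8.29 and 14.7, 10.1 and 25.2 CPM and lost its call without ActD replicate 1 or 3 or without old1 or old3. Neither value can be read as that of the gene alone. The medians were also above 0 against untreated replicates 1 to 3, at 0.61 for cytosolic ribosomal proteins and at 0.40, 0.27, 0.35, 0.30 and 0.145 for the other lists in the order above. Some members were called lower there, 3 cytosolic ribosomal protein genes (3.61%), 7 of oxidative phosphorylation (7.95%), 6 of the proteasome (15.8%), 9 of the mitochondrial ribosome (11.5%) and 2 translation factors (9.52%), beside 11.2% of all genes, and 2 cytosolic ribosomal protein genes were called higher. RPS16 was called lower without ActD replicate 3 (-1.28), MRPL38 lower without old3 (-1.21) and PSMA1, which shares exons, higher without old2 (1.05). Because the scale has no anchor, these values are relative. With the median ribosomal protein gene held still, which lowers each log2 fold change by 0.339, 1730 genes were lower and 36 higher.

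Other housekeeping and cell-cycle lists had medians slightly above 0 against the old libraries. Of the mitotic genes (26 tested), S phase genes (20), chaperones (18), cholesterol genes (20) and RNA polymerase subunits (31), none was called by edgeR or DESeq2, and their medians lay between 0.076 and 0.22. At an unadjusted p under 0.05 these lists held 3, 2, 2, 1 and 1 lower genes and 11, 4, 7, 3 and 8 higher genes, in that order. Compared with untreated replicates 1 to 3 the medians lay between -0.039 and 0.255, and 2 cholesterol genes and 2 polymerase subunits were called lower. HSPB1, a small heat shock protein gene, was called lower without old1 or old2 (-1.08 and -1.04), and STARD4, a sterol carrier, higher without old2 (1.20). CDT1, which licenses replication origins, was the lowest S phase gene at 63.8, 57.3 and 58.1 CPM and 33.4, 27.5 and 33.6 CPM (-0.92, just short of 2-fold). Of 17 SR protein and CLK kinase genes 1 fell, CLK1, a kinase of splicing factors, from 60.04, 74.3 and 52.6 CPM to 28.9, 24.0 and 21.4 CPM (-1.33), with CLK4 and CLK3 at -0.95 and -0.91. Without ActD replicate 1 or old3, CLK4 was called as well (-1.05 and -1.08), which makes 2, and against untreated replicates 1 to 3, 3 of the 17 fell, CLK1 among them. Of 17 cytoskeletal and keratin genes TUBA1A rose, and 3 fell against the other set. KRT8, the keratin of simple epithelia, was at 6512, 5172 and 7124 CPM in the old libraries, 3583, 3772 and 3601 CPM in the other untreated ones and 3358, 3866 and 3493 CPM with ActD (-0.81 and -0.17, not called), in the order of the epithelial marker sums given above, of which it is a part. None of the 10 genes with the highest mean CPM was called: beside KRT8, EEF1A1, RN7SL2 and SNORD3A these were HSPA8, EEF2, GAPDH, FAT1, PKM and HSP90AA1, with log2 fold changes of 0.09, 0.21, 0.36, 0.06, 0.10 and 0.21. TPR and RCC1, the edited genes, had log2 fold changes of 0.25 and -0.02 and were not called.

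RNA made in mitochondria by their own polymerase was counted in the old and ActD libraries only. Of 19 tested genes 11 fell (57.9%, beside 6.08% of all genes) and 2 rose, with a median of -1.03. MT-CO1, a subunit of cytochrome oxidase, was at 626, 1189 and 1526 CPM without treatment and at 281, 286 and 349 CPM with ActD (log2 fold change -1.87, SE 0.27, adjusted p = 0.00155), and MT-ND3 at 45.0, 86.9 and 101.4 and 21.2, 24.3 and 23.2 CPM (-1.76). The 2 that rose were the ribosomal RNAs MT-RNR1, at 10.2, 14.5 and 25.01 and 373, 509 and 27.1 CPM, and MT-RNR2, at 15.5, 44.2 and 179 and 1573, 1799 and 109 CPM, which varied by over 10-fold between ActD libraries. MT-RNR2 was not called without ActD replicate 1, old1 or old2. These RNAs are targets of the ribosomal RNA depletion, whose part in the difference was not tested. The whole class took 0.266% ± 0.109 of counts without and 0.221% ± 0.107 with ActD (exact permutation p = 0.6), within its spread.

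Protein-coding genes were also grouped by their number of exons. Leaving out histones, 13 of 177 genes with 1 exon fell (7.34%), 77 of 500 with 2 exons (15.4%), 179 of 2396 with 3 to 5 (7.47%), 109 of 3542 with 6 to 10 (3.08%) and 147 of 5168 with 11 or more (2.84%). Median log2 fold changes were -0.31, -0.27, 0.007, 0.079 and 0.027 in the same order, and -0.18, -0.20, -0.011, 0.088 and 0.11 against untreated replicates 1 to 3. The medians of genes with 1 or 2 exons were thus below 0 against both sets. The share that fell against untreated replicates 1 to 3 was 3.95% with 1 exon and 18.0% with 2, beside 8.95% over the 11783 genes without histones, so that for intronless genes it was under that of all genes there and above it (4.46%) against the old libraries. In genes that share no exon with another gene, 9.32% of 118 intronless and 18.1% of 265 with 2 exons fell. In the other comparison these shares were 1.69% and 11.3%, and over all 6005 such genes 4.95% and 4.0% fell against the old libraries and the other set.

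The same 2 h of ActD was also given with auxin, which removes TPR, and compared with auxin alone in libraries that the first comparison does not use. There 772 genes were lower (5.66%) and 120 higher (0.88%). Of the 829 genes that fell with ActD alone, 527 (63.6%) fell with auxin too, which was 68.3% of the 772, and 817 (98.6%) had a fold change below 0. Across the 13631 genes, which are not independent replicates, Pearson's r between the 2 sets of fold changes was 0.797. Both comparisons set replicates 1 to 3 against old libraries, so a difference between label sets could enter both. Of the 405 genes that fell against both untreated sets, 277 (68.4%) also fell with auxin against both auxin sets, beside 399 of all genes (2.93%). Among the genes named above, MYC had a log2 fold change of -3.26 with auxin, NFKBIA -2.73, HES1 -2.97, AXIN2 -2.42 and H2BC11 -2.29, all called, and 38 of 48 histone genes fell. Of 21 immediate early genes 11 fell and none rose with auxin, EGR1 (-2.50) and FOS (-1.75) included, and GDF15 fell as well (-3.04). Whether these genes differed between the 2 comparisons was tested by the interaction of the 2 treatments, and none of them passed it in edgeR. The baseline with auxin is auxin alone, and the study reports that TPR loss raises FOS, GDF15 and EGR1 RNA. A larger fall of these 3 with auxin is thus not by itself a faster loss of RNA.

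The medians of the exon classes differed with and without auxin, as did those of some lists, such as immediate early genes (-0.52 and -1.28) and MAP kinase feedback genes (-0.75 and -1.47). Intronless genes other than histones had a median log2 fold change of -0.31 with ActD alone and of 0.425 with auxin, and genes with 2 exons had -0.27 and 0.21. Genes with 11 or more exons had 0.027 and -0.035. Against the other sets of controls the medians of intronless genes were -0.18 and 0.23. In the test of the interaction, 96 of 177 intronless genes had an unadjusted p under 0.05, and in all 96 the value was higher with auxin, beside 891 of 11783 protein-coding genes without histones, of which 634 were higher. The 12 libraries are the same for every gene, so these genes are not independent of each other. In the 118 intronless genes that share no exon it was 62, all higher. Of the 19 HOX genes, 3 fell with auxin, with a median of -0.33, and HOXA13 had 0.12. FJX1, an intronless gene of growth control, had -0.66 with ActD alone and 0.001 with auxin, and ASCL2 had -0.76 and 0.55. Neither passed the interaction test. The values with auxin take auxin alone as their baseline, and the study reports that TPR loss itself lowers FJX1, ASCL2 and HOXA13 RNA. Whether the differences in this paragraph lie in that baseline or in the libraries with ActD was not tested. Over all genes 4 passed at an adjusted p under 0.05 in edgeR (0.0293%), all with a higher value with auxin, and 1080 (7.92%) had an unadjusted p under 0.05. DESeq2 passed 88 genes with a higher value and 23 with a lower one.

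**Figure D4:**
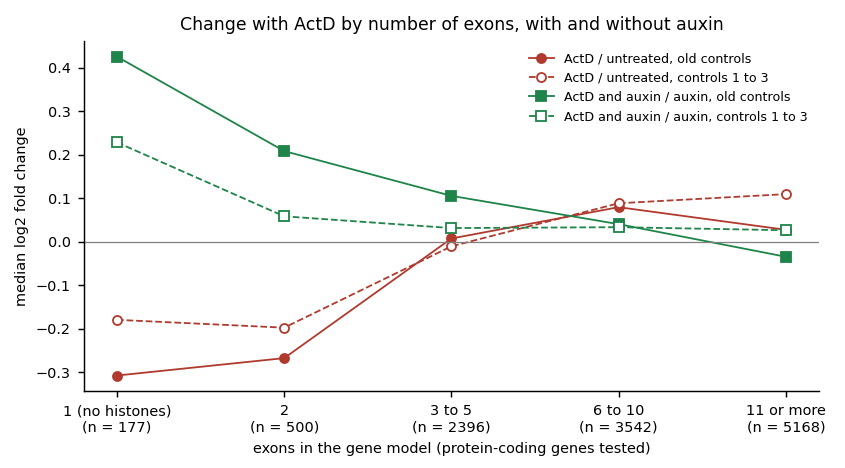
Median log2 fold change (vertical axis) of protein-coding genes by number of exons (horizontal axis, with the number of genes tested), for ActD over untreated in circles and for ActD with auxin over auxin in squares, filled for the old controls and open for controls 1 to 3. The circles of intronless genes sit at -0.308 and -0.18 and the squares at 0.425 and 0.228, and from 6 exons on all 4 lines lie between -0.035 and 0.109.

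The genes that rose are given last, because outside the mitochondrial genome none of them was called higher against the second set by edgeR and 32 of 95 (33.7%) had a fold change below 0 there. The highest was TDO2, a dioxygenase of tryptophan, at 0.157, 0.247 and 0.209 CPM in untreated old1 to old3 and at 5.42, 10.97 and 5.62 CPM with ActD (log2 fold change 5.13, SE 0.41, adjusted p = 9.85e-05). In untreated replicates 1 to 3 it was at 7.43, 10.4 and 7.49 CPM, so that ActD replicates 1 and 3 lay below that set and replicate 2 above it (-0.35). ETV1, an ETS factor, was at 0.668, 0.494 and 0.871 CPM in the old set, 8.43, 8.27 and 7.94 CPM with ActD and 4.55, 5.77 and 5.31 CPM in the other set, and ITIH2, which binds hyaluronan, at 0.393, 0.288 and 0.592, 6.87, 7.69 and 4.59 and 3.05, 3.88 and 2.96 CPM. Both were higher than either set, but by less than 2-fold against the second. The integrin ITGA1 was at 0.55, 0.453 and 0.488, 5.18, 4.83 and 6.22 and 4.24, 4.09 and 5.0 CPM in the same order, and the glucose transporter SLC2A3 at 11.98, 7.13 and 6.76, 54.7, 66.0 and 73.1 and 64.7, 53.5 and 65.6 CPM. In these 2 the ActD libraries overlapped the second set. PRF1 (2.43 and -0.01 against the 2 sets), FGF2 (2.14 and -0.47), DAB2 (2.00 and -0.36), MCOLN3 (2.78 and 0.46), PDE3B (2.30 and 0.24), CLGN (1.80 and 0.62), CALD1 (1.77 and 0.29) and TUBA1A (1.74 and -0.11) were further examples. Of these, MCOLN3, CLGN and CALD1 were above every library of both sets. PDE3B was at 2.29, 2.29 and 3.26 CPM with ActD and at 2.1, 1.74 and 2.26 CPM in the second set. Whether it overlapped that set depends on the scaling, because the CPM of the 2 were scaled in different ways. The other genes overlapped the second set.

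A few of the rises rested on 1 library. CYP1A1, which the aryl hydrocarbon receptor induces, was at 3.65, 2.8 and 1.64 CPM and 3.94, 4.26 and 18.7 CPM, high in ActD replicate 3 only, and at 107, 28.9 and 69.7 CPM in the other set. With auxin the same 2 h of ActD gave a log2 fold change of -4.74, from 419, 47.0 and 339 CPM with auxin alone to 5.41, 6.26 and 17.9 CPM with both. The ActD libraries with and without auxin were thus close together, and the untreated and auxin libraries were apart. With ActD alone, the value of CYP1A1 was 0.61 without ActD replicate 3, and without any of the old libraries it was not called. PTGS2, which makes prostaglandins and carries AU-rich elements, was at 1.06, 1.2 and 1.5 and 2.65, 10.6 and 2.26 CPM, high in replicate 2, and without that library its value was 0.956. It lost its call without each of the old libraries as well. FOSB was at 0.471, 0.865 and 0.801 and 1.04, 2.95 and 3.65 CPM, with 0.841, 15.6 and 1.12 CPM in the other set, and lost its call without old1. CCN2, a matrix protein of the immediate early list, was at 1.26, 0.536 and 1.15 and 1.57, 3.44 and 2.28 CPM and lost its call without ActD replicate 2, old2 or old3. The lncRNA genes ARIH2OS and TNFRSF10A-AS1 overlap other genes, and whether the counting used strand is not given in the sources used here. They had log2 fold changes of 1.10 and 1.01, both called, and were lower against the other set (-1.32 and -1.69). ARIH2OS lost its call without old3, and TNFRSF10A-AS1 without any 1 of 5 libraries, all but ActD replicate 2. Of the 95 higher genes outside the mitochondria, 38 were at least 2-fold higher in untreated replicates 1 to 3 than in the old libraries, and among those that share no exon it was 21 of 67 (31.3%), beside 138 of 6940 tested genes of that kind (1.99%).

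**Figure D5:**
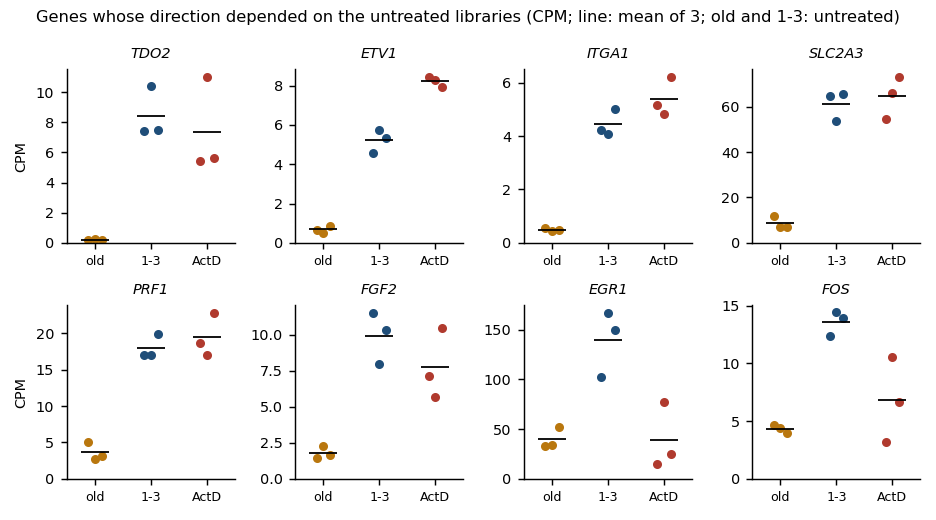
CPM on the vertical axis of each panel for 8 genes, in untreated old1 to old3 (old), untreated 1 to 3 (1-3) and ActD replicates 1 to 3, with 1 point a library and a line at the mean of 3. In TDO2, ITGA1, SLC2A3, PRF1 and FGF2 the ActD points overlap untreated 1 to 3 and lie above the old libraries, and in EGR1 and FOS they lie below untreated 1 to 3, with ActD replicate 2 of EGR1 at 77.5 CPM.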

How the data were processed

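Ribosomal RNA was depleted from total RNA of AID-TPR cells, and libraries were sequenced in 3 replicates a group. The values used are whole-number counts of reads per gene, which the authors deposited after alignment to GRCh38 and counting over exons, and they are not normalised. The submitters' processing notes name STAR 2.6.1c, featureCounts 1.5.2 and CASAVA 1.8.2, while the published methods give other versions of the first 2, so which made each file is uncertain. Samples were grouped by their labels. Genes were matched by Ensembl identifier to GENCODE 44, which held 56948 of 58051, for type, exons and 3′ UTR.

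Genes over 1 CPM in at least 3 of the 6 libraries entered edgeR 4.0.16 (TMM normalisation, quasi-likelihood test, Benjamini-Hochberg adjustment, R 4.3.3), which was tested on simulated data first. CPM in the text are on TMM-normalised library sizes for the ActD and old libraries and on total counts for untreated replicates 1 to 3. SE was taken as the log2 fold change over the root of the F statistic. Calls needed both an adjusted p below 0.05 and a change of 2-fold or more. ActD and auxin against auxin was fitted in the same way, and the interaction of the 2 treatments in 1 fit over 12 libraries. Shares of counts by gene class were compared by an exact 2-sided permutation test. Alternatives were DESeq2 1.42.0, other normalisations, filters and fold thresholds, other control libraries, and each library left out in turn. The genes named were taken from these: of the calls that averaged 50 counts or more and whose groups did not overlap, the 15 protein-coding and 5 lncRNA genes at each end of the fold change, the 3 lowest and 3 highest tested members of each list, the 10 genes with the highest mean CPM, genes that passed the interaction test, and TPR, RCC1, FOS, GDF15, EGR1, FJX1, ASCL2 and HOXA13. Not every gene that this rule names is reported here. Members of lists outside this rule, and the small RNA genes, were chosen after their values were seen. The libraries, lists and tests were chosen with earlier results of these data known.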

Additional observations from a re-analysis of the deposited data

Results flagged for a closer look

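The 4 genes below changed by a different amount with ActD when auxin was present, by the test of the interaction in edgeR over 12 libraries. HILPDA, which encodes a lipid droplet protein induced by hypoxia, had an interaction of 1.56 on the log2 scale (SE 0.18, adjusted p = 0.0124). It was at 23.4, 22.3 and 21.2 CPM untreated, 11.3, 10.5 and 10.5 CPM with ActD, 7.93, 6.7 and 6.65 CPM with auxin and 10.9, 8.93 and 9.83 CPM with both. The ActD libraries with and without auxin were thus close together, and the untreated and auxin libraries were apart. ZNF12, a zinc finger gene, showed the same arrangement, with 55.4, 61.4 and 58.7 CPM untreated, 24.9, 25.04 and 24.96 CPM with ActD, 26.6, 24.8 and 28.1 CPM with auxin and 22.9, 26.4 and 23.0 CPM with both. Its interaction was 1.114 (SE 0.14, adjusted p = 0.0163). FZD7, an intronless Wnt receptor gene, was at 49.4, 53.9 and 52.5, 32.0, 28.4 and 27.8, 21.3, 16.3 and 22.6 and 30.7, 26.2 and 26.5 CPM in the same order, with an interaction of 1.316 (adjusted p = 0.0223), and BEND3P1, a pseudogene with 1 exon, at 6.01, 5.77 and 5.22, 3.25, 3.44 and 3.86, 1.47, 0.893 and 1.19 and 3.1, 2.49 and 3.45 CPM, with 2.065 (adjusted p = 0.0223).

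The direction was the same under all 20 alternatives for each gene. HILPDA and ZNF12 passed the threshold in 14 of them, BEND3P1 in 10 and FZD7 in 9. With 1 of the 12 libraries left out they passed 7, 6, 3 and 2 times, in the order HILPDA, ZNF12, BEND3P1 and FZD7, and the highest adjusted p was 0.0774, 0.106, 0.124 and 0.124. Against untreated and auxin replicates 1 to 3 the interaction was 0.763 for HILPDA (adjusted p = 0.373), 1.04 for ZNF12 (0.0429), 0.911 for BEND3P1 (0.688) and 0.689 for FZD7 (0.144).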

How the results depend on the processing

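Against the 829 lower and 97 higher genes with ActD, a fold of 1.3 or 0.7 gave 1997 and 1361, a fold of 4 gave 127 and 16, and no filter on low counts gave 1713 and 338. Library sizes alone gave 63 higher genes, filterByExpr 166 and the CPM cutoff of the study, without its second cutoff on values corrected for gene length, 147. Untreated replicates 1 to 3 gave 1519 and 61, scaling to ribosomal protein genes 1730 and 36, genes that share no exon 473 lower, and both restrictions together 421 and 29. For ActD and auxin (772 and 120) the fold of 1.3 or 0.7 gave 1515 and 458, the fold of 4 gave 146 and 13, no filter 1643 and 413, filterByExpr 205 higher, and auxin replicates 1 to 3 gave 1492 and 65. The interaction (0 lower, 4 higher) gave 7 higher with library sizes alone, 82 and 192 with no filter, 23 and 88 in DESeq2, and 1 higher with controls 1 to 3. Fewer genes or another call rule set the counts by construction where the threshold, the filter or the genes were changed, and for the other settings the cause was not tested.

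Leaving out 1 library gave 791 to 872 lower and 80 to 106 higher genes for ActD, and 585 to 807 and 61 to 147 for ActD and auxin, where 61 was without ActD and auxin replicate 1, 79 without replicate 2 and 78 without auxin old2. The interaction gave 0 to 8 lower and 0 to 20 higher genes, with 8 and 20 without auxin old2. The difference in the share of counts, in percentage points, was 0.257 to 0.8498 for 7SL, 7SK and Y RNAs, 0.9071 to 1.417 for ribosomal proteins, -0.2014 to -0.1372 for lncRNAs, -0.8479 to -0.7028 for histones and -0.01407 to -0.001263 for snRNAs. It changed sign for protein-coding genes (-0.6589 to 0.2268, with 0.2268 without ActD replicate 2), for snoRNAs (-0.1509 to 0.07175, with 0.07175 and 0.06702 without ActD replicate 1 or 3 and 0.03777 without old2) and for mitochondrial genes (-0.1036 to 0.01698, with 0.01698 without ActD replicate 3 and 0.002967 without old3). Of protein-coding and lncRNA counts alone, the share of protein-coding genes differed by 0.1639.

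Replicate numbers were also fitted as a replicate block, which gave 831 lower and 91 higher genes for ActD, 738 and 110 for ActD and auxin, and 3 and 20 for the interaction. Residuals of same-numbered libraries had correlations of 0.0862, -0.0158 and 0.00649 for ActD and 0.153, 0.0316 and -0.136 with auxin, and not every library correlated best with its own number, so the numbers were not taken to pair the libraries.

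Of 209 named genes, 17 that were called in either fit turned direction, all against untreated replicates 1 to 3. Genes called in neither fit are not counted. With all genes the log2 fold changes there were -0.355 for TDO2, -0.058 for SLC2A3, -0.014 for PRF1, -0.47 for FGF2, -0.445 for PTGS2, -0.361 for DAB2, -1.335 for FOSB, -2.985 for CYP1A1, -1.323 for ARIH2OS, -1.694 for TNFRSF10A-AS1, -0.972 for CCN2, -1.325 for NDUFC2, -2.14 for PSMA1, -0.115 for TUBA1A, 1.066 for RNU6ATAC, -3.302 for CYP51A1 and -1.139 for FOS. Among genes that share no exon they were -0.464 for TDO2, -0.17 for SLC2A3, -0.476 for DAB2, -1.448 for FOSB, -3.102 for CYP1A1 and -1.252 for FOS. DESeq2 kept the side of the threshold for 207 of 209 genes, and RLE normalisation for 209.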
